A study of Mus musculus with 2 samples.

Results

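*Lypd1*, *Lynx1*, *Ly6h* and *Ly6e* are 4 genes of the Ly6 family, and they were followed cell by cell in neurons of the mouse spiral ganglion. They were chosen by name, as the family members known from neurons, and all 4 are among the 14425 genes of the deposited expression table. That table holds 869 cells in 2 libraries. Neurons came from cochleae of both sexes, were sorted for the red reporter tdTomato and were sequenced by 10x Genomics 3′ chemistry (v3). The control library, iCON, has the genotype Runx1-CreER/+; Ai14/+, in which Cre from *Runx1*-CreER switches on the Ai14 reporter. The other library, iCKO, is Runx1-CreER/Runx1F; Ai14/+, so that its cells carry a floxed *Runx1* allele as well. Mice of both groups received tamoxifen at P1, and tissue was taken between P27 and P29. Sorted cells are therefore cells in which the *Runx1*-driven Cre was active. The number of animals in each library is not given in the sources used here, and there is 1 library per genotype, so no test was run and each difference is between 2 libraries.

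Ly6 family proteins are small, cysteine-rich proteins with the three-finger fold of snake venom toxins, and most are held on the outside of the cell by a glycosylphosphatidylinositol (GPI) anchor. Those made by neurons are called prototoxins, because several of them bind nicotinic acetylcholine receptors and change how these receptors are assembled or how they respond. LYNX1 is the best known of them and limits nicotinic signalling in the adult brain, LYPD1 (also named LYNX2) and LY6H act on the same receptor family, and LY6E is made by many cell types and is also known from immune cells. In the spiral ganglion *Lypd1* is used as a marker of type Ic neurons, 1 of the 3 kinds of type I neuron that contact inner hair cells. *Calb2* (calretinin, a calcium-binding protein) is highest in type Ia neurons and lowest in type Ic neurons.

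The iCON library gave 22011292 UMIs from 462 cells (unique molecular identifiers, each counting 1 captured transcript), and the iCKO library gave 13743824 UMIs from 407 cells. Median depth came to 49725.5 UMIs per cell in iCON and 33602 in iCKO, and the libraries shared 0 cell barcodes. Levels are UMIs per 10000 UMIs of the cell, averaged over cells. Differences are given as log2 ratios, iCKO divided by iCON, after 0.05 was added to each mean. Intervals cover counting error at 95% and not differences between animals or preparations, and those of a ratio refer to summed UMIs. *Runx1*, the targeted gene, goes against the label: its RNA averaged 0.867 per 10000 in iCON and 1.12 in the library labelled iCKO. Reads near the 3′ end do not show whether a floxed part further upstream was lost, so this level does not check the label. The libraries differed in make-up too. Cells with *Xist* and no Y-linked RNA were 54.5% of iCON and 78.4% of iCKO, and cells with low RNA of the myelin genes *Mbp* and *Pmp22* were 21.9% and 36.9%. Summed RNA of 6 glial markers averaged 25.6 per 10000 in iCON (range over cells 0 to 73.2) and 20.9 in iCKO (0.438 to 42.3), with 5 of the 6 lower in iCKO. All 4 fibroblast markers were lower in iCKO as well, with summed means of 1.05 (0 to 8.71) and 0.790 (0 to 4.91). The 3 listed hair cell markers of 4 went the other way, with summed means of 0.0464 (0 to 1.18) and 0.565 (0 to 138) and a median of 0 in both libraries. Of 5 endothelial and 5 myeloid markers 1 each is in the table, with means under 0.05 in both libraries. The part of these cell types in the results was not tested. Neuron identity was checked in 8 clusters, each of which had at least 4 of 6 neuron markers detected in 90% or more of its cells.

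*Lypd1* lies on chromosome 1 (GRCm38, 125867622 to 125913101, minus strand). The other members sit together on chromosome 15: *Lynx1* at 74747852 to 74753046 on the minus strand, *Ly6e* at 74955051 to 74959905 on the plus strand and *Ly6h* at 75551268 to 75567255 on the minus strand. All 4 are annotated as protein-coding in GENCODE M21. Promoter windows from RefSeq (GRCm38.p6) were matched for 1 of the 4 members, *Lypd1*, which has 3 windows, and those of *Lynx1*, *Ly6e* and *Ly6h* were not used here. In view of the *Runx1* allele studied here, the 250 bases before each start were searched on both strands for the core motif of RUNX factors, written as TGTGGT or TGCGGT. The motif was present before 1 of the 3 starts, at bases 200 to 205 of the window chr1:125912215-125912464 on the minus strand, as the reverse complement ACCACA of TGTGGT. That window is shown 5′ to 3′ with the motif in capitals.
Lypd1 promoter window: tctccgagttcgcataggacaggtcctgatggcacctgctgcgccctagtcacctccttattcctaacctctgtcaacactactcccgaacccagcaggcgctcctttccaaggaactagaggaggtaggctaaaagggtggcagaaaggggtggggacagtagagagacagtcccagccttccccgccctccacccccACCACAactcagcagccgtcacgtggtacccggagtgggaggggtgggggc
Of 32817 promoter windows of this length, 18.6% held 1 of these motifs, so a match of this kind is common. The match is a description of the letters and not evidence of binding.

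*Lypd1* was an on-or-off gene in both libraries. In iCON its level over cells had a median of 0.352 per 10000, a 75th percentile of 39.6 and a maximum of 66.5. In iCKO the median was 0, the 75th percentile 21.9 and the maximum 60.0. The cells fell into a pile at or near 0 and a separate broad group above 10 per 10000, with few cells in between. A cell was called on at 10 or more per 10000 and off under 1. On this scale 180 of 462 iCON cells were on, which is 39.0% (34.5 to 43.6, exact binomial), 26 lay between and 256 were off. In iCKO 126 of 407 cells were on, or 31.0% (26.5 to 35.7), 20 lay between and 261 were off. The threshold crosses a thin part of the distribution, since 16 iCON and 25 iCKO cells had from 5 to 20 per 10000. On cells held 98.6% of all *Lypd1* UMIs in iCON and 97.6% in iCKO.

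**Figure D1:**
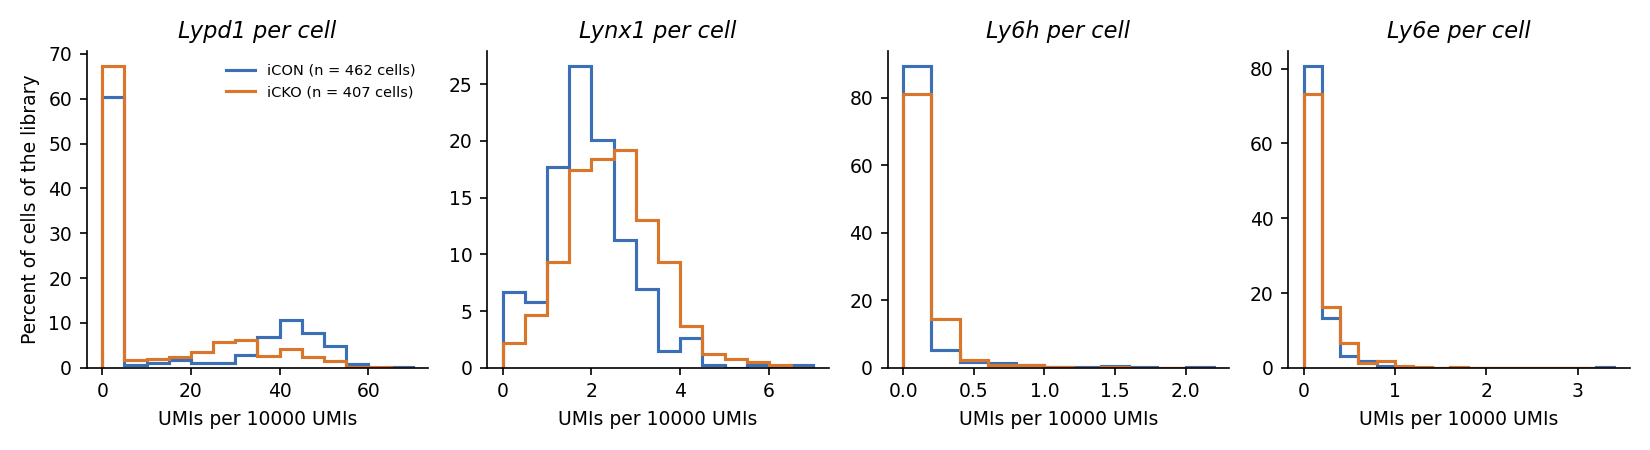
Percent of the cells of each library (y axis) against the level of each member in UMIs per 10000 UMIs (x axis), for 462 iCON cells (blue) and 407 iCKO cells (orange). *Lypd1* has a pile near 0 and a broad second group up to 66.5, *Lynx1* has a single hump around 2 per 10000, and *Ly6h* and *Ly6e* are at 0 in most cells.

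A few *Lypd1* UMIs in a cell did not mark an on cell. Type II-like neurons, which contact outer hair cells, had a *Lypd1* UMI in 18.9% of 37 cells after thinning every cell to 20000 UMIs, against 243 of 454 iCON cells and 162 of 405 iCKO cells. The median depth before thinning was 28282 UMIs in the type II-like cells. Without thinning 61.3% of iCON and 42.0% of iCKO cells held a *Lypd1* UMI. Among off type I cells 69 of 226 in iCON and 24 of 254 in iCKO held a *Lypd1* UMI, at mean levels of 0.104 and 0.0386 per 10000. The type II-like cells of iCON had a mean of 0.0986, which is at the level of the iCON off cells. Those of iCKO had 0.0627 on 1 UMI. These low counts are read as background, which was not tested. The on share is used below in place of the share of cells with a UMI.

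Averaged over all cells, *Lypd1* was lower in iCKO, at 10.3 per 10000 (SD over cells 16.1) against 16.0 in iCON (SD 20.7). The log2 ratio was -0.64, and that of the medians was -3.01, a value that depends on the 0.05 added because the iCKO median is 0. The ratio of summed UMIs, 13829 against 36302, was -0.71 with a counting interval of -0.74 to -0.68. *Lypd1* ranked 47th from the lowest among the 3761 genes that reached 0.5 per 10000 on average and were found in 25% or more of the cells of a library. Of these genes 2.74% were lower by 0.5 or more on the log2 scale and 1.62% were higher by as much. Among the members 2 of 4 passed the minimum. *Lypd1* was 1 of 2 lower by 0.5 and none was higher by as much, and this count of members is too small to be read against the background. All 30 type II-like cells of iCON were *Xist* cells and all 7 of iCKO were cells with Y-linked RNA, so values by these groups are given for type I cells, which are all cells outside the type II-like cluster. There the ratio was -0.81 with *Xist* and -0.79 with Y-linked RNA, and -0.50 where myelin-gene RNA was low and -0.75 where it was high. The difference in on share over all cells was -8.00 percentage points (-14.2 to -1.64), in type I cells -10.2 points (-16.6 to -3.61) and over all cells without the 2 clusters nearly all of iCKO -15.3 points. In type I cells it was -11.4 points with *Xist* (-19.6 to -3.11) and -12.4 with Y-linked RNA (-23.5 to 0.287), where the interval includes 0. Where myelin-gene RNA was low it was -7.11 points (-19.6 to 4.99), an interval that also includes 0, and where it was high -9.76 points (-17.4 to -1.88).

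The lower mean went with fewer on cells and with a lower mean over the on cells. On cells had a mean of 40.6 per 10000 in iCON (SD 10.3, 10th to 90th percentile 25.9 to 52.5) and of 32.4 for iCKO (SD 11.02, 18.4 to 48.0), a log2 ratio of -0.33. The groups overlapped over most of their range. On cells of the 2 libraries had median depths of 50681 and 33944.5 UMIs, close to those of their libraries. Cells with *Xist* were 53.9% of on cells in iCON and 81.7% in iCKO, and cells with low myelin-gene RNA were 16.7% and 31.7%. Their part in the difference was not tested, apart from the values within these groups of cells given above.

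The same comparison reads differently once cells are matched on *Calb2*. Type I cells were divided by their *Calb2* level into those under 10, from 10 up to 50, from 50 up to 150 and at 150 or more per 10000. In iCON these bins held 142, 133, 88 and 69 cells, and in iCKO 31, 62, 131 and 176. More of the iCKO cells lay at high *Calb2*, and at 150 or more *Lypd1* was off in nearly all cells of both libraries. Over type I cells the *Lypd1* ratio was -0.71, and with equal weights for the 4 bins it was 0.51, the opposite direction.

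In cells under 10 *Calb2*, nearly every cell was on. On were 98.6% of the iCON cells (95.005 to 99.8) and 96.8% of the iCKO ones (83.3 to 99.9). The mean *Lypd1* level was 42.3 per 10000 for iCON (SD 9.97) and 41.4 for iCKO (SD 11.6), a log2 ratio of -0.03. Medians were 43.1 and 43.7, and the cells of the libraries overlapped over nearly the whole range.

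From 10 up to 50 *Calb2* the libraries differed. On were 27.8% of the iCON cells (20.4 to 36.3) and 72.6% of the iCKO ones (59.8 to 83.1), and the mean level was 9.70 (SD 15.9) and 23.8 (SD 16.4). The log2 ratio was 1.29, with a counting interval of 1.21 to 1.32. It was 2.27 with bounds of 20 and 100, and the second quartile of *Calb2* set within each library, which does not match the *Calb2* level, gave -0.996. *Lypd1* ranked 6th from the highest of 3860 genes in this bin, where 2.2% of genes were higher by 0.5 or more. *Calb2* itself was matched, with medians of 30.6 and 31.1, but the clusters were not. Cluster 2, which is Ib-like, held 83 of the 133 iCON cells and 4 of the 62 iCKO cells, and clusters 4 and 6 held 0 and 34. Without the latter clusters 57.1% of 28 iCKO cells were on and the ratio was 1.20. Among *Xist* cells the ratio came to 1.21, among Y-linked cells to 1.40. Where myelin-gene RNA was low it was 0.14, with 57.9% of 19 iCON cells and 55.6% of 18 iCKO cells on, and where it was high 1.62. In this bin the libraries thus differed in cells with high myelin-gene RNA and not detectably in on share among the low ones. The difference between those 2 groups of cells was not tested.

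From 50 up to 150 *Calb2* the log2 ratio was larger, while the difference in on share was smaller than from 10 up to 50. Of 88 iCON cells 2 were on, or 2.27% (0.276 to 7.97), and of 131 iCKO cells 47 were on, or 35.9% (27.7 to 44.7). Mean levels were 1.01 (SD 4.20) and 10.1 (SD 13.6), a log2 ratio of 3.25, against -0.65 in the third quartile of *Calb2* set within each library. *Lypd1* ranked 1st of 3748 genes in this bin, where 1.81% of genes were higher by 0.5 or more. As the bin is cut on *Calb2*, this rank too is a description. Median *Calb2* was 70.8 and 86.5. The ratio was 3.13 where myelin-gene RNA was low, 3.31 where it was high, 4.42 with *Xist* and 1.93 with Y-linked RNA. Without 2 clusters that were nearly all iCKO, 26.5% of 68 iCKO cells were on. At 150 or more *Calb2*, 1 of 69 iCON cells and 4 of 176 iCKO cells were on, with means of 0.362 and 0.546, and the shares of 1.45% and 2.27% did not differ beyond counting error. The 1 iCON cell was the deepest of its library, at 93322 UMIs, and Scrublet called it a doublet. Without the doublets 0 of 68 iCON cells were on (upper bound 5.28%, exact binomial) and 4 of 174 iCKO cells, the means were 0.0568 and 0.553, and the log2 ratio moved from 0.53 to 2.50. In the highest quartile of *Calb2* set within each library it was -2.99.

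**Figure D2:**
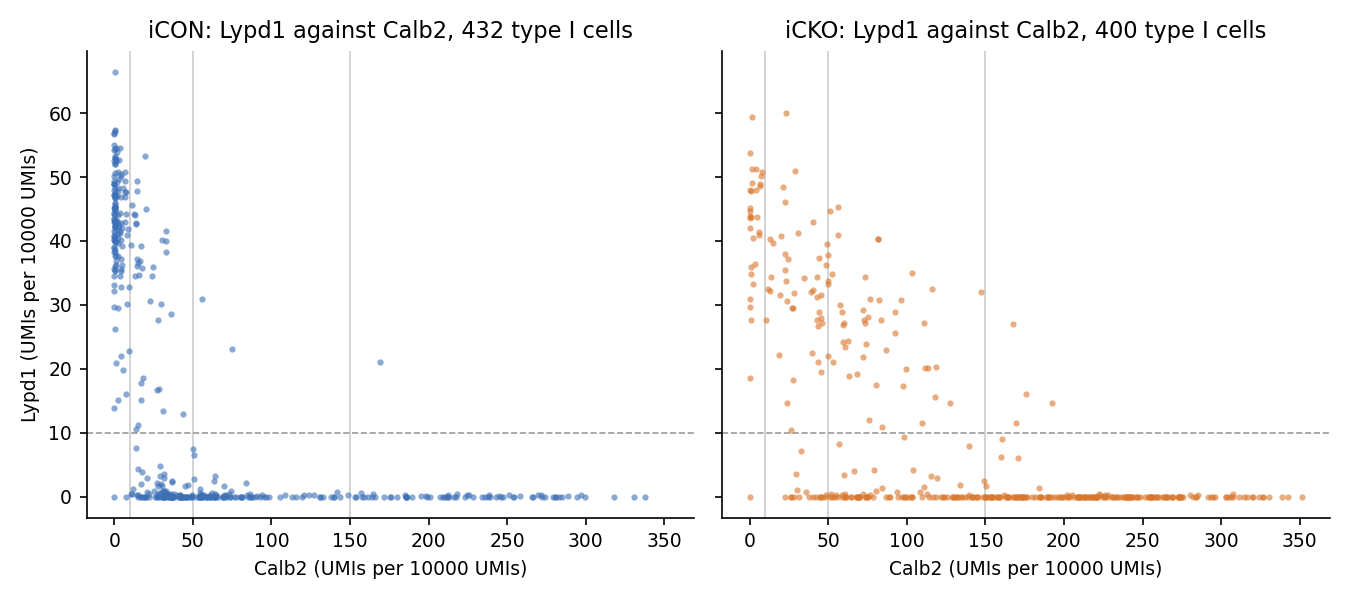
*Lypd1* (y axis) against *Calb2* (x axis), both in UMIs per 10000 UMIs, with 1 point per type I cell, for 432 iCON and 400 iCKO cells. Grey lines mark 10, 50 and 150 *Calb2* and the dashed line marks 10 *Lypd1*. On cells of iCON stand mostly under 10 *Calb2*, and on cells of iCKO reach past 100.

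Cells with both genes were rare in iCON and present in iCKO. *Lypd1* on together with *Calb2* at 50 or more was found in 3 of 432 type I cells of iCON, or 0.694% (0.143 to 2.02), and in 51 of 400 of iCKO, or 12.8% (9.64 to 16.4). The difference was 12.1 percentage points (8.85 to 15.7). In *Xist* cells the shares were 0.450% and 13.8%, among Y-linked cells 0.990% and 8.0%, in cells with low myelin-gene RNA 1.16% and 11.8%, and in cells with high myelin-gene RNA 0.578% and 13.3%. A droplet with 2 cells would carry RNA of both. The 51 iCKO cells had a median depth of 34948 UMIs against 33739 in all iCKO type I cells, and 0 of them were called doublets by Scrublet, against 1 of the 3 in iCON, which is also the only one of the 3 with *Xist*. Without doublets the shares were 0.464% and 12.9%. Of the 51 cells, 25 came from cluster 6 and 6 from cluster 4. These clusters held 148 iCKO cells and 1 iCON cell, and why they are nearly all iCKO was not tested. Without them the shares were 0.696% and 7.94%.

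The level of *Lypd1* in on cells was also taken by *Calb2* bin. In on cells under 10 *Calb2* it averaged 42.9 per 10000 in iCON (SD 8.64, 140 cells) and 42.8 in iCKO (SD 8.80, 30 cells). In on cells from 10 up to 50 *Calb2* it averaged 33.1 (SD 11.9, 37 cells) and 32.6 (SD 9.38, 45 cells). From 50 up to 150 *Calb2* it averaged 27.1 in 2 iCON cells and 26.8 in 47 iCKO cells (SD 8.45). At 150 or more it was 21.1 in 1 iCON cell, the doublet call, and averaged 17.3 in 4 iCKO cells (SD 6.72). In the first 2 bins the level per on cell differed between the libraries by less than 1 SD over cells, and the higher bins rest on 2 iCON cells and on that doublet call. Without it the mean over on cells was lower in each higher *Calb2* bin up to 150 in iCON, and in iCKO up to the last bin. None of this was tested.

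**Figure D3:**
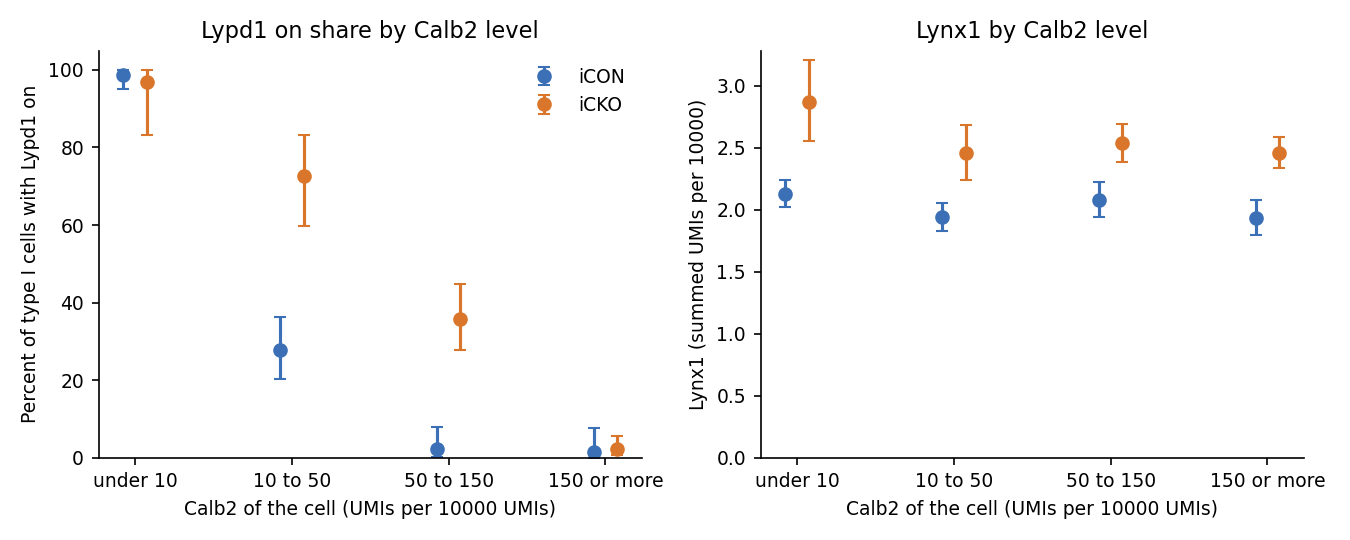
Left, percent of type I cells with *Lypd1* on (y axis) by *Calb2* level of the cell in UMIs per 10000 UMIs (x axis), with exact binomial 95% intervals. Right, *Lynx1* as summed UMIs per 10000 UMIs in the same bins with exact Poisson 95% intervals. Blue is iCON and orange iCKO. The *Lypd1* shares separate from 10 to 150 *Calb2* (27.8% against 72.6%, and 2.27% against 35.9%), and *Lynx1* is higher in iCKO in each bin.

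By class, *Lypd1* is itself a marker used to name Ic-like cells, so its level there is a description. Classes were named by fixed markers from clusters made without the markers and without any Ly6 family gene. Ic-like cells had 41.8 *Lypd1* per 10000 in iCON (SD 9.17, 139 cells, 99.3% on) and 25.8 in iCKO (SD 14.8, 66 cells, 81.8% on). The iCKO class combined 20 cells of cluster 0, at 38.9, with 46 cells of cluster 6, at 20.1, a cluster with no iCON cell, and cluster 0 held all 139 iCON cells. Unnamed clusters had 18.9 in iCON (67 cells) and 13.5 in iCKO (182 cells). Among them cluster 1 had 18.9 in 66 iCON cells and 18.8 in 80 iCKO cells, and cluster 4 had 9.44 in its 102 iCKO cells. Ib-like cells had 1.25 in iCON (130 cells) and 0.745 in iCKO (11 cells), and Ia-like cells had 1.84 (96 cells, of which 5.21% were on) and 0.0169 (141 cells). In both libraries the order was Ic-like, unnamed and then the other classes. The Ia-like level of iCON rests on 5 on cells of cluster 3, with a maximum of 40.6. All 5 had *Calb2* under 10 per 10000, although *Calb2* is an Ia marker, so this level is not read as that of Ia neurons. At a clustering resolution of 1.0 the Ia-like level of iCON was 0.0685. The Ib-like level of iCON was then 2.13 and the Ic-like level of iCKO was 27.4.

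**Figure D4:**
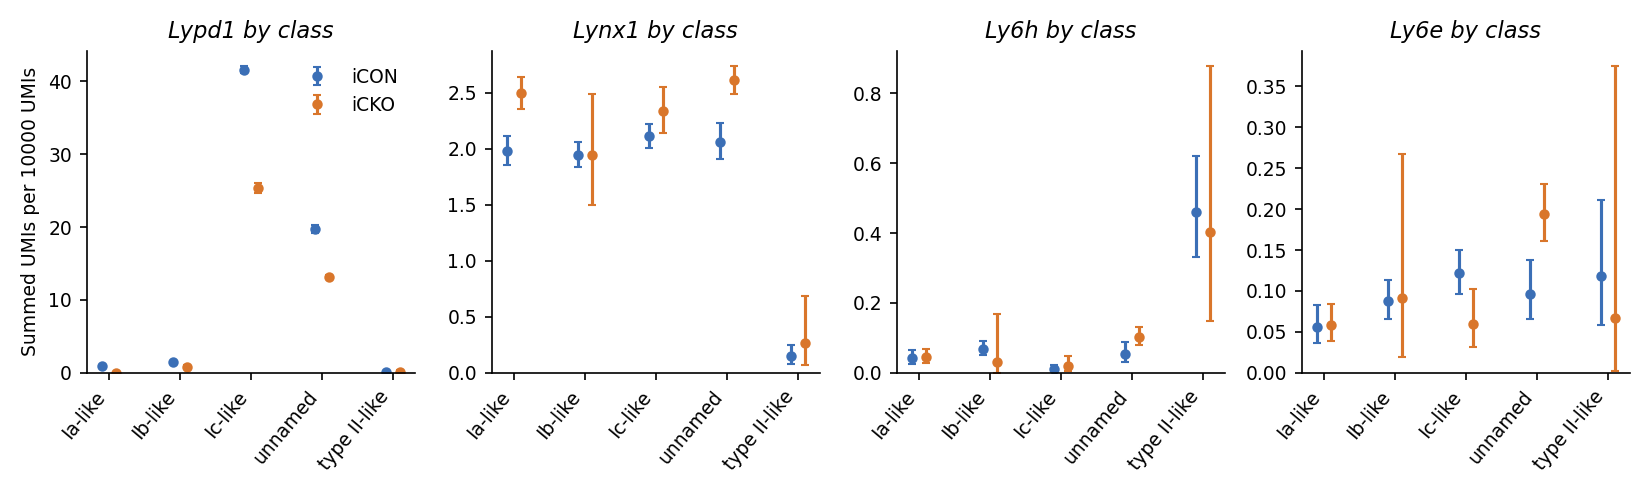
Level of each member as summed UMIs per 10000 UMIs (y axis) in the 5 classes (x axis) of iCON (blue) and iCKO (orange), with exact Poisson 95% intervals. *Lypd1* is high in Ic-like and unnamed cells, *Lynx1* is similar in the type I classes and low in type II-like cells, and *Ly6h* is highest in type II-like cells.

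*Gpr39*, a zinc-sensing receptor gene, overlaps *Lypd1* on the opposite strand. Its 83 UMIs lay almost entirely in *Lypd1* on cells, 61 of 62 in iCON and 21 of 21 in iCKO. There were 1.71 *Gpr39* UMIs per 1000 *Lypd1* UMIs in iCON (1.31 to 2.19) and 1.52 in iCKO (0.940 to 2.32), a ratio that did not differ beyond counting error. Whether the authors counted by strand is not given in the sources used here, so reads of the 2 genes cannot be told apart with certainty, and the level of *Gpr39* is uncertain. How many of the *Lypd1* UMIs came from *Gpr39* reads was not tested.

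*Lynx1* behaved in another way, with RNA in nearly every type I cell and similar levels in the type I classes of iCON. Over all cells of iCON it had a 10th percentile of 0.842, a median of 1.88 and a 90th percentile of 3.15 per 10000. In iCKO these were 1.28, 2.46 and 3.80. After thinning, 98.4% of type I cells held a *Lynx1* UMI, against 29.7% of the 37 type II-like cells. Type II-like cells had 0.151 per 10000 in iCON (14 UMIs in 30 cells) and 0.276 in iCKO (4 UMIs in 7 cells), far under the 1.95 to 2.15 of the type I classes and unnamed clusters of iCON. The smallest SD over cells in those iCON groups was 0.738, a spread of single cells that does not show whether the means differ. In iCKO the mean was 1.92 in Ib-like (11 cells), 2.36 in Ic-like (66 cells) and 2.51 in Ia-like cells (141 cells). Differences between the classes were not tested.

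The *Lynx1* mean was 1.93 for iCON (SD 0.937) and 2.47 for iCKO (SD 1.03), a log2 ratio of 0.35 with a counting interval of 0.29 to 0.42. The cells of the libraries overlapped over most of the range. This ratio is under the fold of 0.5. In type I cells the ratio was 0.28. By *Calb2* bin, from the lowest, it was 0.37, 0.27, 0.27 and 0.31, so that *Lynx1* was higher in iCKO to a like extent at each *Calb2* level. Type I cells with *Xist* had means of 2.08 in iCON (222 cells) and 2.59 in iCKO (319 cells), and those with Y-linked RNA had 2.02 (202 cells) and 2.15 (75 cells). These give ratios of 0.31 with *Xist* (0.24 to 0.40) and 0.09 with Y-linked RNA (-0.02 to 0.27), an interval that includes 0. Over all cells, where the type II-like cells with little *Lynx1* are in the *Xist* group of iCON and the Y-linked group of iCKO, the ratios were 0.47 and -0.02. The difference between the 2 groups of cells was not tested, and the animals of each sex cannot be told apart.

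*Ly6h* was sparse in type I cells and highest in type II-like cells. It had 131 UMIs in all of iCON and 97 in iCKO. After thinning, 51.4% of 37 type II-like cells held a *Ly6h* UMI (34.4 to 68.1) and 9.37% of 822 type I cells (7.46 to 11.6), although the type II-like cells were the shallower ones before thinning. The mean was 0.478 per 10000 in type II-like cells of iCON (SD 0.577, 30 cells) and 0.420 in those of iCKO (SD 0.528, 7 cells). Ic-like cells had the lowest level, with 8 UMIs and a mean of 0.0101 in 139 iCON cells and 4 UMIs in 66 iCKO cells. Ib-like cells of iCON had 0.0729 and Ia-like cells 0.0430, which did not differ beyond counting error. Over all cells the log2 ratio was 0.03, and the counting interval of -0.15 to 0.64 includes 0. That ratio mixes 30 iCON and 7 iCKO type II-like cells with the type I cells, and in type I cells alone it was 0.34. The 0.05 added to each mean is close to the *Ly6h* means of type I cells, which draws these ratios toward 0. Type I cells with *Xist* had means of 0.0357 in iCON (39 UMIs) and 0.0795 in iCKO (86 UMIs). Those with Y-linked RNA differed the other way, with 0.0520 (49 UMIs) and 0.0141 (3 UMIs). Counting intervals of the log2 ratio, from summed UMIs, were 0.55 to 1.70 with *Xist* and -4.26 to -0.30 with Y-linked RNA. Neither includes 0. The difference between these groups of cells was not tested. Most type I cells held no *Ly6h* UMI, so an on and an off state cannot be told apart.

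*Ly6e* was also sparse, with 207 UMIs in iCON and 167 in iCKO and a UMI in 16.3% and 19.3% of thinned cells. Its mean was 0.0956 per 10000 for iCON (SD 0.227) and 0.120 for iCKO (SD 0.236), a log2 ratio of 0.22 with a counting interval of 0.07 to 0.67. Cluster 4, which is nearly all iCKO, held 87 of the 167 iCKO UMIs at 0.239 per 10000. Without the clusters nearly all of iCKO the ratio was -0.10. In type I cells the ratio was 0.42 with *Xist* and -0.72 with Y-linked RNA, where iCKO held 9 UMIs. The higher level in iCKO is thus not general over its cells. In iCON the levels of *Ly6e* by class ran from 0.0691 in Ia-like cells to 0.115 in Ic-like cells, and the type II-like cells had 0.111 on 11 UMIs.

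The members had weak correlations with each other across cells. Over 424 thinned iCON type I cells the Spearman correlation of *Lypd1* was 0.05 with *Lynx1*, -0.19 with *Ly6h* and 0.09 with *Ly6e*, and over 398 iCKO cells it was -0.03, -0.05 and 0.08. *Lynx1*, *Ly6h* and *Ly6e* had correlations with each other between -0.01 and 0.13 in the libraries. With *Calb2*, the correlation of *Lypd1* was -0.81 in iCON and -0.70 in iCKO. For *Lynx1* it was -0.05 and 0.06, for *Ly6h* 0.18 and -0.03 and for *Ly6e* -0.14 and -0.14. These values describe cells that share a library and its animals. The weak ones, in sparse counts, are read neither as relations nor as their absence. By *Lypd1* state, the *Ly6h* level in iCON averaged 0.00778 in on cells (8 UMIs, 180 cells) and 0.0694 in off type I cells (75 UMIs, 226 cells). In iCKO it averaged 0.0467 (20 UMIs, 126 cells) and 0.0774 (67 UMIs, 254 cells). *Lynx1* and *Ly6e* were instead higher in on cells than in off type I cells in both libraries. Differences between on and off cells were not tested.

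The genes most like *Lypd1* were ranked by Spearman correlation across the same 424 iCON cells, among 3587 genes past the minimum in iCON. The 10 highest were *Pcsk2* (0.65 in iCON and 0.60 in iCKO), a prohormone-cleaving protease, *Sphkap* (0.64 and 0.70), *Serpini1* (0.61 and 0.63), which encodes neuroserpin, the calmodulin gene *Calm2* (0.59 and 0.56), *Tagln3* (0.58 and 0.65), *Faim2* (0.55 and 0.41), the neuronal splicing factor gene *Rbfox3* (0.55 and 0.54), *Tmem47* (0.52 and 0.45), the kinase subunit gene *Camk2g* (0.51 and 0.37) and *Ndfip2* (0.51 and 0.31). The correlation was nearer to 0 in iCKO for 7 of these 10, which were ranked on the iCON values. All 10 had a lower mean in iCKO, with a median log2 ratio of -0.24. Of the 3761 genes past the minimum 48.7% had a lower mean and the median was 0.01. The 10 were picked for tracking *Lypd1*, itself lower in iCKO, so this count is a description. In *Lypd1* on cells *Sphkap* averaged 1.56 per 10000 in iCON and 1.51 in iCKO, and in off type I cells 0.0956 and 0.106. *Pcsk2* averaged 1.73 and 1.61 in on cells and 0.398 and 0.462 in off cells. These genes were chosen for their correlation with *Lypd1* in the iCON cells, so the values by *Lypd1* state are a description. *Tmem47* had 3.57 and 2.36 in on cells and 1.71 and 1.17 in off cells, lower in iCKO in both states.

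Among genes that ran against *Lypd1*, the 10 lowest correlations were those of *Calb2*, *Cd24a* (-0.67 in iCON and -0.63 in iCKO), a surface glycoprotein gene, *Zfp804a* (-0.62 and -0.60), the potassium channel gene *Kcnk1* (-0.54 and -0.53), *Nefm*, which encodes a neurofilament subunit (-0.48 and -0.30), *Rasgrp2*, the calcium sensor gene *Syt7*, *Spock3*, *Spp1* and the RNA-editing enzyme gene *Adarb1*. The correlation was nearer to 0 in iCKO for 9 of these 10, again ranked on the iCON values. Of these, 8 had a higher mean in iCKO and 2 a lower one, which is likewise a description. *Cd24a* averaged 2.64 per 10000 in iCON on cells and 5.13 in iCKO on cells. *Calb2* averaged 7.39 and 47.7 in the same cells. Both genes were thus higher in iCKO on cells than in iCON on cells. Off cells differed the same way, with 7.40 and 10.9 *Cd24a* in the 2 libraries.

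**Figure D5:**
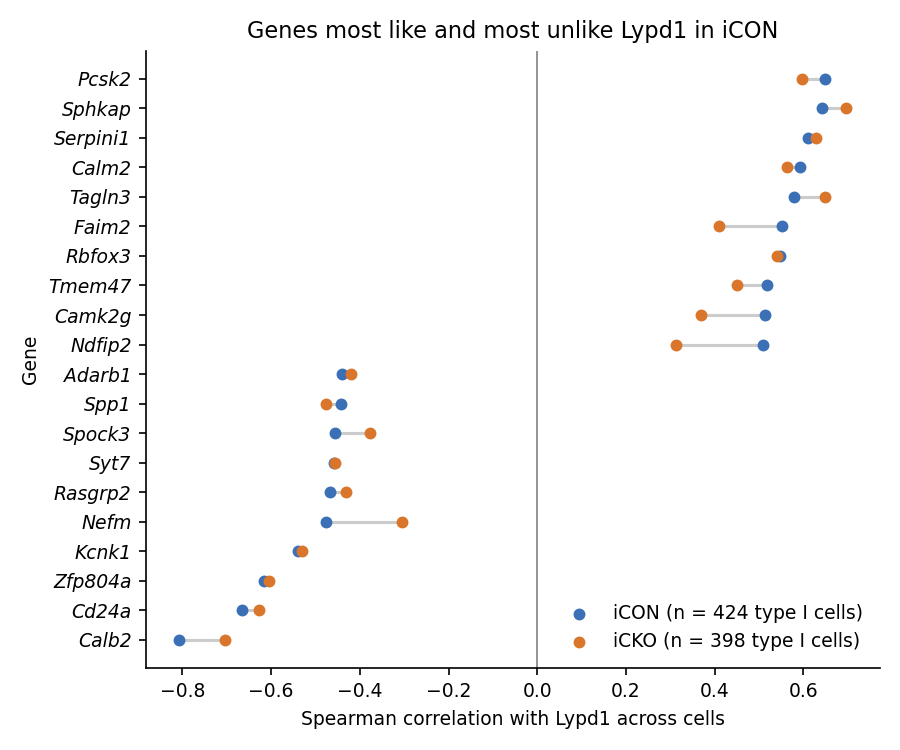
Spearman correlation with *Lypd1* across thinned type I cells (x axis) for 10 genes from each end of the iCON ranking (y axis), in 424 iCON cells (blue) and 398 iCKO cells (orange). All 20 genes keep their sign in iCKO, from -0.70 for *Calb2* to 0.70 for *Sphkap*, and 7 of the 10 highest and 9 of the 10 lowest lie nearer to 0 there.

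Of 38 other Ly6 and uPAR family genes looked up, 5 are in the table and 4 had at least 100 UMIs. All 4 had a lower mean in iCKO, with a median log2 ratio of -0.54. Of the 4, 3 were lower by 0.5 or more. Over the 3761 genes past the minimum 48.7% were lower, 2.74% were lower by 0.5 or more and the median was 0.01, but only *Cd59a* of the 4 passed that minimum, so the count is a description. *Cd59a*, an inhibitor of complement attack on the cell's own membrane, averaged 2.60 per 10000 (iCON) and 1.78 (iCKO), with a ratio of -0.53 (-0.64 to -0.50). It was lower in iCKO in each *Calb2* bin, with ratios from -0.67 to -0.33, and in type I cells both with *Xist* (-0.57) and with Y-linked RNA (-0.54). *Lypd6b*, a close relative of the nicotinic modulator *Lypd6*, was at 0.383 and 0.245, a ratio of -0.56 (-0.87 to -0.50), and had a ratio in type I cells of -0.66 with *Xist* and -0.39 with Y-linked RNA, where the interval of -0.80 to 0.0047 includes 0. *Lypd6* was at 0.0769 and 0.0291 on 166 and 40 UMIs, with ratios in type I cells of -1.08 with *Xist* and -0.13 with Y-linked RNA, where the interval of -1.37 to 0.77 includes 0. *Cd59b* had 113 and 60 UMIs and a ratio of -0.09, with an interval of -0.71 to 0.23 that includes 0, and as a close copy of *Cd59a* it is uncertain. *Ly6g6d* had 4 UMIs in all.

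The receptors on which prototoxins act were thinly represented. Of 18 nicotinic receptor and assembly genes, 8 are in the table and 3 had at least 100 UMIs, and none of these 3 was past the fold of 0.5 in either direction. With 1.62% of all genes past the minimum higher and 2.74% lower by as much, 0 of 3 is near the background, and *Chrnb2* did not pass that minimum. *Chrnb2*, the beta2 subunit, averaged 0.236 per 10000 (iCON) and 0.255 (iCKO), with a log2 ratio of 0.09 with an interval of -0.06 to 0.34. *Ric3*, a receptor chaperone, was at 0.797 and 0.811, and *Tmem35*, the older symbol of the NACHO chaperone gene, at 0.582 and 0.540. *Chrna4* had 25 and 49 UMIs, *Chrna7* 20 and 5, *Chrna9* 16 and 6, *Chrna1* 50 and 25 and *Chrnb1* 4 and 2. For *Chrna4* the log2 ratio of summed UMIs was 1.65, with a counting interval of 0.93 to 2.41. From means with 0.05 added it was 0.43. The intervals of *Chrna7*, *Chrna9*, *Chrna1* and *Chrnb1* include 0. In *Lypd1* on cells *Chrnb2* was at 0.265 and 0.293, against 0.233 and 0.248 in off type I cells. The difference between on and off cells was not tested.

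All 5 genes of the GPI transamidase, the enzyme complex that attaches the anchor of Ly6 proteins, were detected, and none was past the fold of 0.5. This too is near the background of 1.62% higher and 2.74% lower, and 3 of the 5 passed the minimum, *Pigs* and *Pigu* being under it. *Gpaa1* had a ratio of -0.25, *Pigk* of -0.04, *Pigs* of 0.32, *Pigt* of -0.15 and *Pigu* of 0.19. Their median was -0.04.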

How the data were processed

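The authors deposited the natural log of 1 plus CPM for each cell over the listed genes. This unit was settled from the values: the linear values summed to 1000000 in each of 869 cells, and 100% of nonzero values lay within 1e-06 of a whole multiple of the smallest value of the cell, so whole UMIs were computed. A deposited text label gives the library of each barcode. Cell Ranger, Seurat and the build mm10 are named, per the submitters' processing notes; their versions and the filters are not given in the sources used here.

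Cells were clustered with scanpy 1.11.5 and leidenalg 0.10.2 (2000 variable genes, 20 components, 15 neighbours, resolution 0.5). *Runx1*, the marker lists and every Ly6 family gene were left out. A cluster took the name of the marker list that stood above 0.5 in mean log2 ratio and led the others by 0.5, if 3 of its markers were detected in 10% of cells, 1 was among the 10 leading genes and no other list had more there. Scrublet called 1 iCON and 4 iCKO cells as doublets, which were kept. Low myelin-gene RNA means under 1 per 10000 of *Mbp* and *Pmp22* together, and 14 cells lay from 0.5 to 2. Other genes first planned for this sum and for the glial list are not reported here, so this split was set after the data were seen. Thinning to 20000 UMIs left out 8 iCON and 2 iCKO cells. Shares have exact binomial (Clopper-Pearson) intervals, differences of shares Newcombe intervals (statsmodels 0.14.6), and counts exact Poisson intervals. The log2 ratio, the fold call and the correlation ranking were run on simulated counts with known changes. These counts held no *Calb2* bins or neuron classes, so those steps were not tested.

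Members, lists and rules were chosen with earlier results of these data known. Named genes were the members, all listed family, nicotinic and GPI transamidase genes, with values for those of at least 100 UMIs, and the 10 genes at each end of the correlation with *Lypd1*; *Gpr39* and the nicotinic genes under 100 UMIs were added after their values were seen. Alternatives changed weights, pseudocount, depth, scale, cells, *Calb2* bins and resolution.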

Additional observations from a re-analysis of the deposited data

Results flagged for a closer look

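The log2 ratio of *Ly6e* (iCKO over iCON) was 0.40 in cells with *Xist* and -0.69 in cells with Y-linked RNA, and in type I cells alone 0.42 and -0.72. The directions were opposite, each beyond counting error, and the difference between them was not tested. Cluster 4, which is nearly all iCKO, held more of the iCKO *Ly6e* UMIs than all other clusters together. Among iCKO type I cells with *Lypd1* off and *Calb2* at 50 or more, all 60 cells of cluster 4 were *Xist* cells. Over all cells without the clusters nearly all of iCKO the ratio was -0.10. The part of cluster 4 in the difference by *Xist* was not tested. Among type I cells the *Ly6e* level of iCON was 0.0917 per 10000 with *Xist* and 0.0948 with Y-linked RNA; in iCKO the same levels were 0.140 and 0.0378, the latter on 9 UMIs in 75 cells.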

How the results depend on the processing

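Of 238 alternative values, 170 lay within a range around the reported value. The range was 0.1 either way for correlations and otherwise the counting interval, which for levels and ratios refers to summed UMIs and was widened to reach the reported value in 6 results that lay outside it, the *Lypd1* ratio over all cells among them. The sign was that of the reported value in 209, 4 were 0 and 25 had the opposite sign, 17 of them where that range includes 0; the cause was not tested. No paired analysis was possible because there is 1 library per genotype and no replicate number. *Lypd1* log2 ratio over all cells (-0.64): -0.64 with scaling outside the 50 most abundant genes, -3.01 from medians, -0.63 with *Xist*, -0.92 with Y-linked RNA, -0.32 with low myelin-gene RNA, -0.63 without doublets and 0.51, the opposite direction, with equal weights for the *Calb2* bins. *Lynx1*: 0.28 in type I cells, 0.47 with *Xist*, -0.0176 with Y-linked RNA and 0.44 with low myelin-gene RNA. *Ly6h*: -0.26 with low myelin-gene RNA. *Ly6e*: 0 from medians and -0.69 with Y-linked RNA. *Lypd6*: 0.0638 with Y-linked RNA. The difference in on share was -14.7 points with Y-linked RNA. All these splits are over all cells and hold unequal numbers of type II-like cells. Within type I cells, added after seeing the data, *Lypd1* was -0.81 with *Xist*, -0.79 with Y-linked RNA, -0.50 with low and -0.75 with high myelin-gene RNA; *Lynx1* 0.0914 with Y-linked RNA, 0.281 with low and 0.271 with high myelin-gene RNA; *Ly6h* -0.67 and *Ly6e* -0.72 with Y-linked RNA; and the on share -12.4 points with Y-linked RNA.

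At 10 to 50 *Calb2* the *Lypd1* ratio became 2.27 with bounds of 20 and 100, 1.21 with *Xist* and 1.40 with Y-linked RNA. At 150 or more it became 2.14 from 100 up, 0.58 with a pseudocount of 0.01, 0.80 after thinning and 2.50 without doublets. Quartiles of *Calb2* set within each library, which do not match its level between libraries, gave -0.996, -0.65 and -2.99 from the second quartile up. At 150 or more the sign also differed with Y-linked RNA (-0.17) and with high myelin-gene RNA (-0.24). Over all cells the Spearman correlation with *Calb2* in iCON was -0.67 for *Lypd1*, 0.0926 for *Lynx1* and 0.0111 for *Ly6h*, and in iCKO cells with Y-linked RNA 0.22 for *Lynx1* and 0.14 for *Ly6h*.

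Alternatives chosen after seeing the data left out doublets within *Calb2* bins (above), left out the clusters nearly all of iCKO (*Lypd1* -0.85, on share -15.3 points, 1.20 at 10 to 50 and 2.87 at 50 to 150 *Calb2*; *Ly6e* -0.10) or, here and above, split cells by myelin-gene RNA (low: 0.14 at 10 to 50 and 2.97 at 150 or more; high: 1.62 at 10 to 50 and 3.31 at 50 to 150). The bin from 50 to 150 was itself added then; there the ratio of 3.25 became 3.303 with a pseudocount of 0.01, 3.27 without doublets, 4.42 with *Xist* and 1.93 with Y-linked RNA. With 1 library per genotype, genotype cannot be told apart from animals, sex balance, dissection or depth.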
